A study of Mus musculus with 6 samples.

Results

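Integrin subunit genes and the genes of the focal adhesion plaque were followed in Tyr-H and Tyr-L cells. They were chosen by name, as every *Itga* gene, *Itgb1* to *Itgb8* and a list of 20 plaque genes, a rule that uses no measured value but was set with earlier results of these data known. Of the 46 genes that these names match in the GENCODE M21 annotation of GRCm38, 42 were listed in at least 1 library, out of 20788 listed genes in all. They comprised 23 of the 26 integrin genes and 19 of the 20 plaque genes, while *Itgb6*, *Itgam*, *Itgad* and *Fermt1* were listed in none. Tyr-H and Tyr-L cells are subclones of B16, a melanoma line from the C57BL/6 mouse, labelled with high and low tyrosinase activity in that order. Both were grown untreated in the same low-glucose DMEM with serum and antibiotics, and RNA of each was sequenced in 3 libraries. The sources used here describe the cells as expanded from single-cell clones but do not say how many subclones each group holds. They also do not say whether its 3 libraries came from separate cultures, so SD and p-values measure only the spread between these libraries.

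Integrins are receptors of 1 alpha and 1 beta chain that span the membrane and hold a cell to the extracellular matrix. The alpha chain largely sets the ligand, and the beta chain's short tail recruits talin and kindlin, which switch the receptor to its active form. Around the tails a plaque of adaptors assembles: ILK, PINCH and parvin form one complex, FAK, paxillin and p130Cas pass on signals, and vinculin, alpha-actinin, filamin, tensin and zyxin tie the site to actin. In melanoma cells integrins are known for their part in attachment to vessel walls and matrix. The study compared these subclones to ask how melanin synthesis bears on growth in the lung and the brain.

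Expression was deposited as FPKM, fragments scaled by transcript length and by the mapped total, so levels can be set side by side between genes. Depth was not given in counts and was estimated at 18800000 to 21400000 fragments per library from the value that 1 fragment gives. In these bulk libraries, fewer cells of a type and less RNA per cell cannot be told apart. The 14336 genes that averaged 0.1 FPKM or more were compared by limma on log2(FPKM + 0.1), which understates the fold change of low genes. A gene is said here to have risen or fallen where its adjusted p was no more than 0.05, and it is called only if its log2 fold change also reached 1 in size. SE is the standard error of that fit. Over all tested genes the median log2 fold change was -0.15, and by the median ratio of the libraries it was -0.01, so small differences depend on the scaling. Of all called genes, 33.9% were higher in Tyr-H cells as deposited, 47.8% by median ratio scaling and 55.3% after quantile normalization. All 7 melanocytic markers were listed in every library. *Tyr*, the tyrosinase gene, rose in Tyr-H cells (log2 fold change 1.08), while the other 6 fell, from *Tyrp1* (-0.23) to *Mitf* (-1.85). Their summed level was 7343 to 7660 FPKM in Tyr-L and 5438 to 5958 FPKM in Tyr-H libraries. Of 8 leukocyte markers *Ptprc*, *Cd52*, *Tyrobp* and *Csf1r* were at 0 throughout, and the summed level of the list was 3.81 to 4.76 FPKM in Tyr-L and 4.48 to 5.31 FPKM in Tyr-H libraries. Most of that sum was *Cd68*. The 4 endothelial markers summed to no more than 0.054 FPKM, with *Cdh5*, *Kdr* and *Tek* at 0, and the 6 epithelial ones to no more than 0.269 FPKM, with *Krt8* and *Krt18* at 0. The 5 platelet markers summed to no more than 0.39 FPKM, with *Ppbp* at 0. The 5 fibroblast markers summed to 0.558 to 0.582 FPKM in Tyr-L and 0.811 to 1.00 FPKM in Tyr-H libraries. Most of that sum was *Col1a1* (log2 fold change 0.71, limma adjusted p = 0.017) and *Pdgfra* (0.05, adjusted p = 0.87). *Col3a1*, *Dcn* and *Lum* had no more than 0.1054 FPKM in any library. The part of such cells in the results was not tested.

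In Tyr-H cells the beta chains *Itgb8* and *Itgb5* and the plaque gene *Zyx* stood about 2 to 3 times as high as in Tyr-L cells. The alpha chains *Itga6* and *Itgav* and the plaque genes *Tns3* and *Tln2* were lower by 1.65- to 1.99-fold. Of the 17 tested integrin genes, *Itgb8* and *Itga3* were called higher (11.8%, where 2.96% of all tested genes were called higher), and none was called lower (where 5.78% were). Of the 19 tested plaque genes, *Zyx* was called higher (5.26%) and none lower. By adjusted p alone, which 57.8% of all tested genes reached (17.9% higher and 39.9% lower), 5 integrin genes had risen and 4 had fallen. Among plaque genes 9 had risen and 7 had fallen, 84.2% in all, and these became 11 and 5 by median ratio scaling, 6 and 9 with each library rescaled to 1 common total and 8 and 5 without the variance trend, where *Actn4*, *Tln1* and *Lims1* missed the threshold (adjusted p = 0.08, 0.0941 and 0.08). The groups did not overlap in 11 integrin genes (64.7%) and 16 plaque genes (84.2%), against 64.0% of all tested genes. The changes of the plaque genes were not larger in size. The median absolute log2 fold change was 0.29 for plaque genes, 0.40 for integrin genes and 0.32 for all tested genes. All tested plaque genes but *Tns1* averaged above 10 FPKM, while tested genes in general started at 0.1 FPKM. The median log2 fold change was -0.09 for the integrin genes and 0.10 for the plaque genes, beside -0.15 for all tested genes. Median ratio scaling gave 0.06 and 0.25, with the median of all tested genes near 0.

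**Figure D1:**
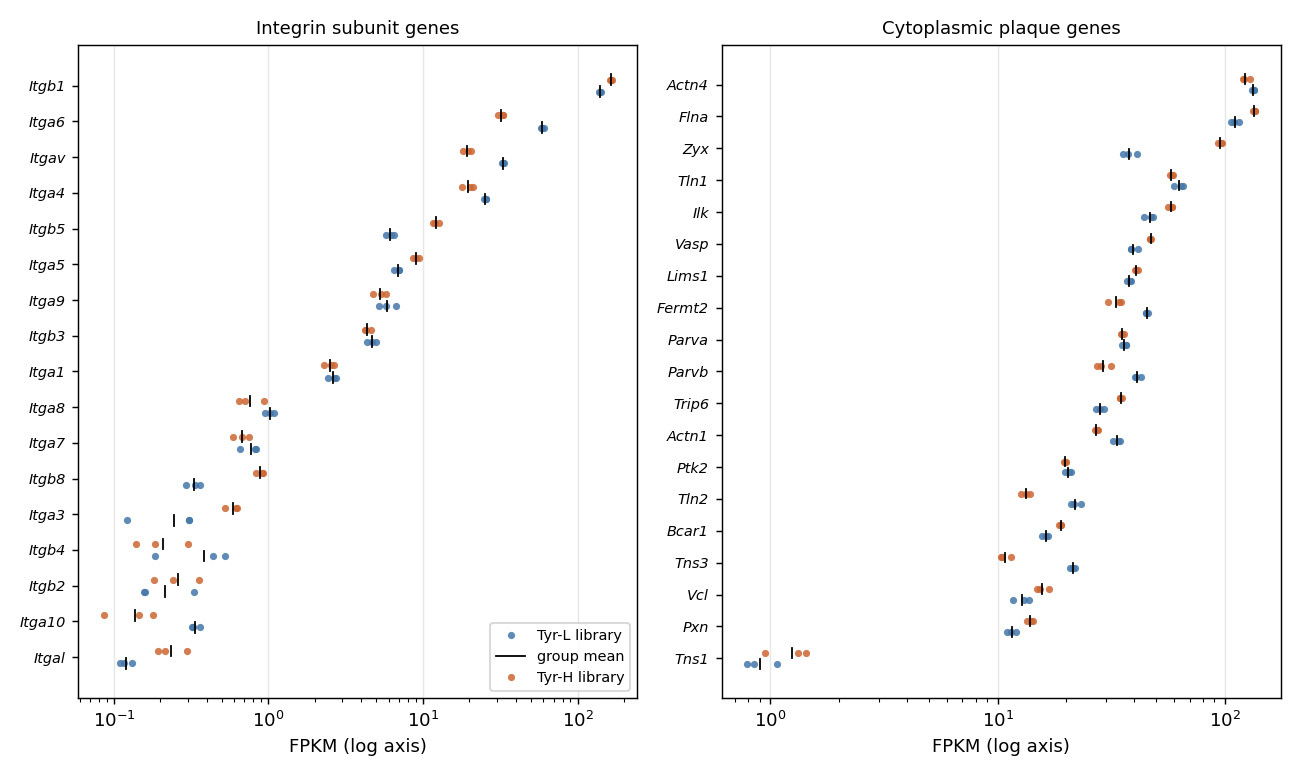
FPKM (log axis) of the 17 tested integrin genes and the 19 tested plaque genes, ordered by their mean. Points are libraries, 3 Tyr-L and 3 Tyr-H, and black ticks are group means; plaque genes other than Tns1 lie above 10 FPKM while integrin genes run from means of 0.177 FPKM (Itgal) to 152 FPKM (Itgb1).

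**Figure D2:**
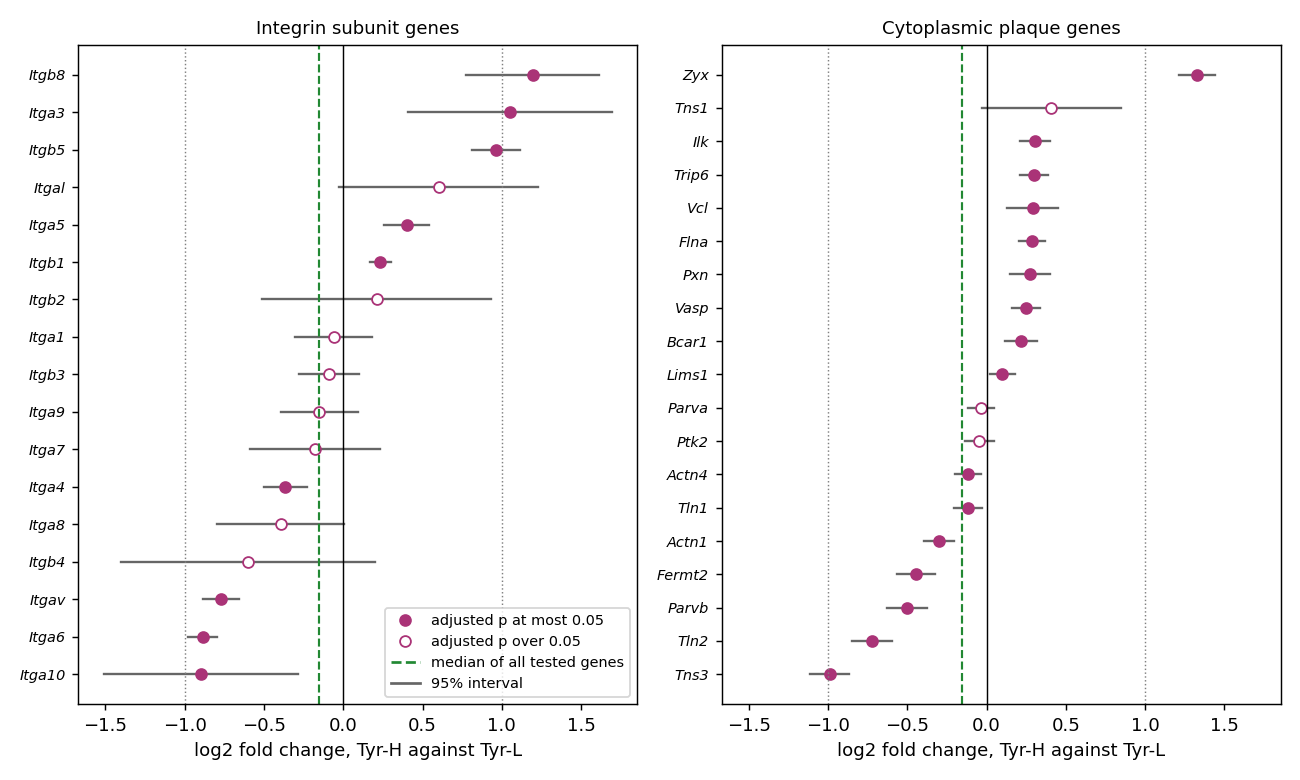
Log2 fold change from limma (Tyr-H over Tyr-L) for each tested member, with 95% intervals; filled points have an adjusted p of at most 0.05. The green line marks the median of all tested genes (-0.15) and dotted lines mark 2-fold; Itgb8, Itga3 and Zyx lie beyond the upper one and no gene beyond the lower one.

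*Itgb1*, the common beta chain that pairs with most alpha chains, was by far the most abundant integrin transcript in both groups. It lies on chromosome 8 from 128685654 to 128733200. Its level was 142, 138.7 and 139.6 FPKM in Tyr-L and 163, 167 and 165 FPKM in Tyr-H libraries. Every Tyr-H library was above every Tyr-L library, by a small margin: the log2 fold change was 0.23 (SE 0.03, adjusted p = 0.000118). The next integrin gene, *Itga6*, had 60.3 FPKM in its highest library.

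*Itgb5* encodes the beta chain of the vitronectin receptor alpha-v beta-5 (chromosome 16, 33829665 to 33949338, no overlapping gene). It had 6.22, 6.47 and 5.76 FPKM in Tyr-L and 11.5, 12.0 and 12.7 FPKM in Tyr-H libraries. The groups were far apart relative to their spread, at a 1.97-fold ratio of means. The log2 fold change of 0.96 (95% interval 0.81 to 1.11) spans the threshold of 1, and the gene passed it by median ratio scaling (1.12), with quantile normalization (1.13) and with Tyr-L replicate 2 left out (1.00). Its promoter is shown because it and its partner *Itgav* moved in opposite directions: the 250 bases before the transcript start in RefSeq (GRCm38.p6), 5′ to 3′ on the strand of the gene. Capitals mark the motifs searched, here 3 GC boxes.
Itgb5, plus strand, chr16:33829415-33829664: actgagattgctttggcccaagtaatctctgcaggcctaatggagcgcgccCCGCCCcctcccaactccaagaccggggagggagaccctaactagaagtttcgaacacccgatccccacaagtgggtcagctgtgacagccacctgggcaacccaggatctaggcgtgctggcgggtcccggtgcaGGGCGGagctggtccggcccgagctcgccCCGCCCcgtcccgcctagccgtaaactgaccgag

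*Itgb8*, whose product pairs with alpha-v alone and is known for releasing active TGF-beta from its latent complex, lies on chromosome 12 from 119158022 to 119238802. Its libraries held 0.336, 0.294 and 0.363 FPKM in Tyr-L and 0.924, 0.827 and 0.905 FPKM in Tyr-H cells. This 2.68-fold ratio was the largest among integrin genes with all libraries above their floor, the value that 3 fragments would give. Its level stayed low in both groups, under 1 FPKM, and with a pseudocount of 1 FPKM its log2 fold change went from 1.19 to 0.50.

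*Itgb3*, the other beta chain that melanomas are known to pair with alpha-v, had 4.68, 4.97 and 4.33 FPKM in Tyr-L and 4.61, 4.23 and 4.29 FPKM in Tyr-H libraries. These ranges overlapped, and the log2 fold change of -0.09 had an interval from -0.28 to 0.10. *Itgb2*, the beta chain of leukocyte integrins, and *Itgb4*, the partner of alpha-6 in hemidesmosomes, had at most 0.522 FPKM in any library, with overlapping groups (adjusted p = 0.597 and 0.175). The 95% intervals of their log2 fold changes were wide, -0.51 to 0.93 and -1.40 to 0.20, and without Tyr-L replicate 1 *Itgb4* was lower by adjusted p (0.0369). *Itgb7* was at or under its floor in 5 of 6 libraries.

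Among the alpha chains the laminin receptor *Itga6* (chromosome 2, 71745616 to 71858416) had the largest decrease of the abundant integrins. Its values were 58.3, 59.1 and 60.3 FPKM in Tyr-L and 32.8, 32.8 and 30.5 FPKM in Tyr-H libraries. The log2 fold change was -0.89 (SE 0.04, adjusted p = 4.3e-07), and it stayed between -0.90 and -0.85 with each library left out in turn. None of the 4 annotated genes that overlap it was listed in any library. The other laminin-binding chains were low. *Itga3* had 0.308, 0.122 and 0.305 FPKM in Tyr-L and 0.619, 0.522 and 0.627 FPKM in Tyr-H libraries. It was called higher (log2 fold change 1.05, SE 0.28, adjusted p = 0.0109), but Tyr-L replicate 2 lay well under the others, and without it the value was 0.76 and the call was lost. A pseudocount of 1 FPKM gave 0.36. *Itga7*, at 0.588 to 0.835 FPKM, overlapped between groups.

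*Itgav* encodes the alpha chain shared by the vitronectin receptors and by beta-8 (chromosome 2, 83724397 to 83806916). It had 32.8, 32.6 and 33.6 FPKM in Tyr-L against 19.5, 20.5 and 18.1 FPKM in Tyr-H libraries. Its log2 fold change was -0.77 (SE 0.05, adjusted p = 3.02e-06), so the alpha-v chain fell while its partners *Itgb5* and *Itgb8* rose. Its promoter, over the same 250 bases as for *Itgb5*, held no match to the motifs searched and so shows no capitals.
Itgav, plus strand, chr2:83724147-83724396: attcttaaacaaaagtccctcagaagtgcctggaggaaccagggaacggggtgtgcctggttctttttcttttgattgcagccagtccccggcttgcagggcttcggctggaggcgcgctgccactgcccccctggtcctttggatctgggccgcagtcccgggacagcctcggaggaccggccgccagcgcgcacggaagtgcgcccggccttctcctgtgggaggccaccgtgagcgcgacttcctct

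*Itga5*, the alpha chain of the main fibronectin receptor, went the other way. It had 6.54, 7.04 and 6.97 FPKM in Tyr-L and 9.04, 9.49 and 8.68 FPKM in Tyr-H libraries (log2 fold change 0.40, adjusted p = 0.000532). *Itga8*, also a receptor chain for the RGD motif, ranged from 0.953 to 1.08 FPKM in Tyr-L and from 0.65 to 0.93 FPKM in Tyr-H libraries, without overlap but with an adjusted p of 0.083. That p was 0.0456 with each library rescaled to 1 common total and 0.0355 without Tyr-H replicate 1. *Itga2b*, the platelet chain, was under the filter with at most 0.152 FPKM.

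*Itga4*, whose product binds VCAM-1 and fibronectin as alpha-4 beta-1, had 25.4, 24.8 and 25.6 FPKM in Tyr-L and 21.0, 20.2 and 17.8 FPKM in Tyr-H libraries. The log2 fold change was -0.36 (SE 0.06, adjusted p = 0.000672). It overlaps *Cerkl* on the opposite strand, which was itself lower in Tyr-H libraries (0.226 to 1.02 against 1.59 to 1.71 FPKM). The part of that gene in the result was not tested. Its relative *Itga9* overlapped between groups at 4.72 to 6.69 FPKM. Of the collagen-binding chains, *Itga1* did not separate the groups either, with 2.42 to 2.75 FPKM in Tyr-L and 2.29 to 2.66 FPKM in Tyr-H libraries, and its sign turned with the scaling. It holds the expressed gene *Pelo* on the same strand. *Itga10* fell from between 0.319 and 0.363 to between 0.086 and 0.179 FPKM (log2 fold change -0.90, adjusted p = 0.018). It missed the threshold without Tyr-L replicate 1 (adjusted p = 0.0527) or Tyr-H replicate 1 (0.053) and after quantile normalization (-0.66, adjusted p = 0.0641). It was called lower with a pseudocount of 0.01 FPKM (-1.29), rescaled to 1 common total (-1.17) and without Tyr-H replicate 2 (-1.03). *Itga2* (0.0688 to 0.107 against 0 to 0.0331 FPKM) and *Itga11* (at most 0.0283 FPKM) were under the filter.

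The leukocyte alpha chains were unlisted or low. *Itgam* and *Itgad* were listed in no library, which at this depth allows up to 0.0341 and 0.0389 FPKM. *Itgax* was listed once at 0.0113 FPKM, under its floor, and *Itgae* was at or under its floor in 3 of the 6 libraries. *Itgal*, the alpha chain of LFA-1, was the highest of them, with 0.11 to 0.131 FPKM in Tyr-L and 0.193 to 0.3 FPKM in Tyr-H libraries. Its groups did not overlap, but the adjusted p was 0.092, and it was 0.011 without the variance trend of the fit and 0.0303 after quantile normalization.

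The order of levels changed accordingly. In Tyr-L cells *Itgb1* was followed by *Itga6*, *Itgav*, *Itga4* and *Itga5*, and each of these stood apart from the next in every library. *Itgb5* came next, and its range overlapped that of *Itga9*. In Tyr-H cells *Itga4* and *Itgav* had overlapping ranges, and *Itgb5* had moved above *Itga5* (lowest library 11.5 FPKM against a highest of 9.49 FPKM).

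The 12 alpha chains that can pair with beta-1 summed to 134, 135 and 138 FPKM in Tyr-L and to 91.8, 93.1 and 85.3 FPKM in Tyr-H libraries. Divided by *Itgb1* in the same library, a ratio that no factor applied to a whole library can move, the sum was 0.940 to 0.985 in Tyr-L and 0.517 to 0.564 in Tyr-H cells. Within this pool the share of *Itga6* went from 43.8% ± 0.09 to 35.6% ± 0.27 and that of *Itgav* from 24.4% ± 0.2 to 21.5% ± 0.51 (SD, n = 3). The share of *Itga5* went from 5.06% ± 0.16 to 10.1% ± 0.2, and that of *Itga4* from 18.7% ± 0.34 to 21.8% ± 0.97, although its level fell. These shares were chosen with the levels known and are given as a description, with no test.

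The beta chains that pair with alpha-v were *Itgb1*, *Itgb3*, *Itgb5* and *Itgb8*, with *Itgb6*, the epithelial one, listed in no library and taken as 0. Of their summed level *Itgb5* took 4.06%, 4.30% and 3.84% in the Tyr-L libraries and 6.42%, 6.54% and 6.95% in the Tyr-H libraries. The share of *Itgb8* went from 0.219% ± 0.02 to 0.486% ± 0.03, and that of *Itgb3* from 3.08% ± 0.21 to 2.40% ± 0.14 (SD, n = 3). These shares add up to the whole and their genes were chosen with results known, so they too are a description. *Itgb1*, which is not reserved for alpha-v, made up the rest, 92.6% ± 0.42 in Tyr-L and 90.5% ± 0.26 in Tyr-H cells.

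**Figure D3:**
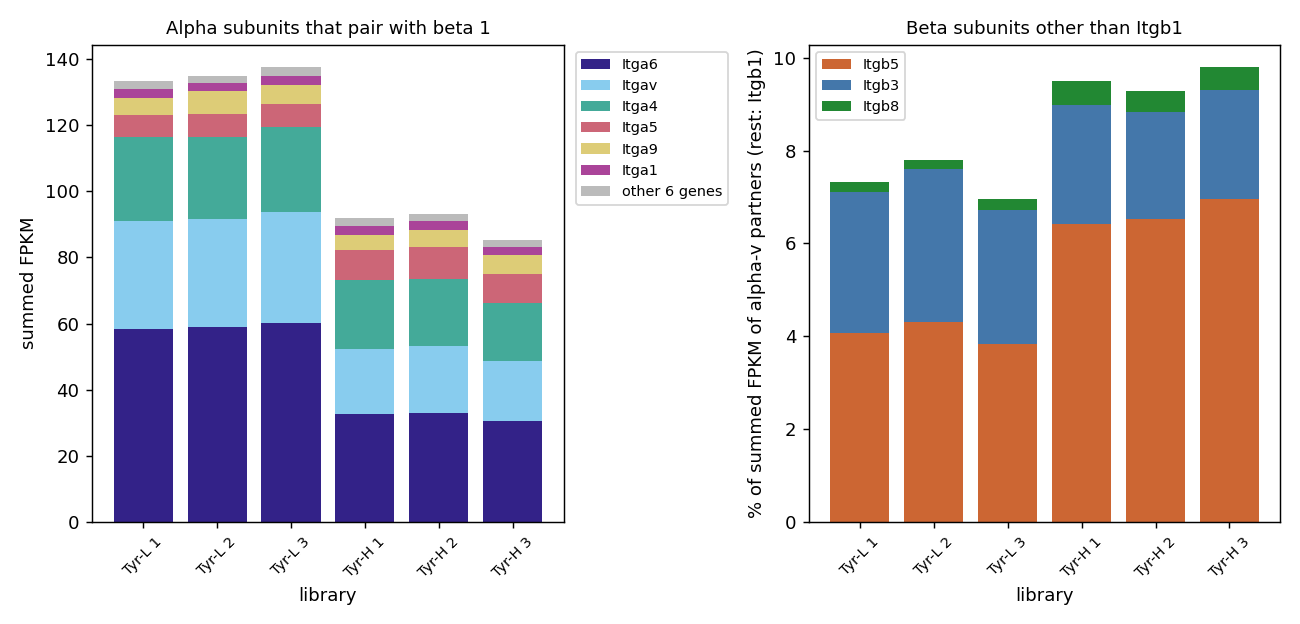
Left, summed FPKM of the 12 alpha chains that pair with beta-1 in each library, stacked by gene: the sum is 134 to 138 FPKM in Tyr-L and 85.3 to 93.1 FPKM in Tyr-H libraries. Right, the share (%) of Itgb5, Itgb3 and Itgb8 in the summed FPKM of the alpha-v partners, with Itgb1 as the rest: the Itgb5 share is higher in each Tyr-H library.

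In the plaque, *Zyx* stood out. Zyxin is a LIM-domain protein that arrives at adhesions under tension and recruits Ena/VASP proteins to repair and strengthen actin fibres. The gene lies on the plus strand of chromosome 6 from 42349630 to 42360213. It had 35.6, 41.0 and 37.3 FPKM in Tyr-L and 96.0, 93.3 and 96.9 FPKM in Tyr-H libraries. The 2.51-fold ratio of means gave a log2 fold change of 1.33 (SE 0.05, adjusted p = 2.11e-07), between 1.28 and 1.38 with each library left out. *Zyx* moved from ninth in Tyr-L cells, among genes with overlapping ranges, to the third highest of the plaque genes in Tyr-H cells. GC boxes lay 223 and 10 bases before its RefSeq start. An AP-1 site lay 121 bases before that start, inside the gene as GENCODE M21 draws it but in none of its exons. The site, in capitals, is shown with 10 bases on each side, of which 9 are exonic in that annotation.
Zyx, plus strand, chr6:42349697-42349723: gtgcggacagTGAGTCAgttctccagc

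The deposited tables give *Zyx* a wider locus than the annotation does. Genes that overlap the annotated gene on the opposite strand were low, *Epha1* at 0.174 to 0.285 FPKM and *Gm44284* at no more than 0.0159 FPKM.

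The other genes followed in the zyxin group, *Vasp* and *Trip6*, rose less. *Vasp*, the actin polymerase that zyxin binds, had 38.8, 41.5 and 38.5 FPKM in Tyr-L and 47.6, 46.8 and 47.0 FPKM in Tyr-H libraries (log2 fold change 0.25, adjusted p = 0.000472). *Trip6*, a LIM protein of the zyxin family, had 28.3, 29.3 and 27.1 FPKM against 34.5, 34.7 and 35.1 FPKM (log2 fold change 0.30, adjusted p = 0.000174). Neither overlapped between groups. In Tyr-L cells *Zyx* was level with *Vasp*, with ratios of 0.919, 0.986 and 0.969, and in Tyr-H cells it was at 2.02, 1.99 and 2.06 times the level of *Vasp*. Their relatives outside the names followed, named after their values were seen, did not rise with them. *Lpp*, *Evl* and *Enah* fell (log2 fold change -0.36, -0.415 and -0.90), and *Limd1* (-0.07) and *Ajuba* (0.07) neither rose nor fell.

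The talins *Tln1* and *Tln2* and the kindlin *Fermt2* fell as deposited. *Tln2*, one of the talins, which bind beta tails and pull them to actin, dropped most (chromosome 9, 67217087 to 67559703). Its libraries had 20.9, 23.3 and 21.7 FPKM in Tyr-L and 13.9, 13.3 and 12.6 FPKM in Tyr-H cells, with a log2 fold change of -0.72 (SE 0.06, adjusted p = 7.44e-06). *Tln1*, the major talin, had 60.0, 65.4 and 64.1 FPKM against 58.3, 59.0 and 57.3 FPKM. That difference (log2 fold change -0.12, adjusted p = 0.03) was no larger than the median shift of all genes, and median ratio scaling turned it to 0.04. It also missed the threshold without Tyr-L replicate 2 or 3 and without any 1 of the Tyr-H replicates (adjusted p = 0.0513 to 0.103). *Tln1* overlaps *Creb3* (14.3 to 16.3 FPKM) on the opposite strand. *Fermt2*, the kindlin of most adherent cells, had 46.1, 44.8 and 44.95 FPKM in Tyr-L and 34.3, 35.0 and 30.5 FPKM in Tyr-H libraries (log2 fold change -0.45, adjusted p = 8.29e-05). *Fermt1*, the epithelial kindlin, was listed in no library. Among activators outside the names followed, the kindlin *Fermt3* had 0.15 to 0.166 FPKM in Tyr-L and 0.124 to 0.174 FPKM in Tyr-H libraries (adjusted p = 0.991). *Apbb1ip*, which recruits talin, rose from 0.159 ± 0.05 to 0.344 ± 0.06 FPKM (SD, n = 3, limma adjusted p = 0.0322), and both were named after their values were seen.

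Within the ILK complex the members went apart. *Ilk*, the pseudokinase at its centre, had 47.2, 48.5 and 44.2 FPKM in Tyr-L and 56.4, 58.4 and 58.4 FPKM in Tyr-H libraries (log2 fold change 0.31, adjusted p = 0.000195). It overlaps *Taf10* and *Rrp8* on the opposite strand, both expressed (61.7 to 77.3 and 13.2 to 17.5 FPKM), and strand-specific counting is not given in the sources used here. *Parvb*, which encodes beta-parvin, had 42.7, 40.6 and 40.3 FPKM against 31.7, 28.5 and 27.3 FPKM (log2 fold change -0.50, adjusted p = 6.15e-05). Its paralog *Parva* had 35.3, 36.6 and 36.6 FPKM in Tyr-L and 35.2, 34.9 and 35.9 FPKM in Tyr-H libraries. The *Parva* groups overlapped, with a log2 fold change of -0.03 that median ratio scaling turned to 0.12 (adjusted p = 0.022) and rescaling to 1 common total to -0.13 (adjusted p = 0.0251). *Lims1*, the gene of PINCH-1, had 38.4, 37.2 and 38.5 FPKM in Tyr-L and 40.3, 40.6 and 41.5 FPKM in Tyr-H libraries, a rise of 0.10 on the log2 scale (adjusted p = 0.033). It missed the threshold with the replicate block (adjusted p = 0.0696) and without any 1 library other than Tyr-H replicate 1 (0.0557 to 0.097), and with each library rescaled to 1 common total it was 0.0064.

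The signalling adaptors rose modestly or not at all. *Pxn* (paxillin) had 12.1, 11.0 and 11.5 FPKM in Tyr-L and 13.4, 14.1 and 14.3 FPKM in Tyr-H libraries (log2 fold change 0.27, adjusted p = 0.0021). *Bcar1*, the substrate p130Cas that is phosphorylated when stretched, had 15.7, 16.7 and 16.3 FPKM against 19.0, 18.7 and 19.1 FPKM (log2 fold change 0.22, adjusted p = 0.0021), and rescaled to 1 common total it was 0.12 (adjusted p = 0.0621). *Ptk2*, the gene of focal adhesion kinase, had 19.9, 21.0 and 20.6 FPKM in Tyr-L and 19.95, 19.7 and 19.9 FPKM in Tyr-H libraries. These overlapped, and the log2 fold change of -0.04 (interval -0.14 to 0.05) became 0.11 after median ratio scaling (adjusted p = 0.0574) and -0.14 rescaled to 1 common total (adjusted p = 0.0361).

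Of the actin linkers, *Tns3* fell most (chromosome 11, 8431652 to 8664535, no overlapping gene). Tensin-3 binds the tails of integrins in mature, elongated adhesions. Its gene had 22.0, 20.9 and 21.6 FPKM in Tyr-L and 11.5, 10.3 and 10.5 FPKM in Tyr-H libraries. The Tyr-H mean was 50.2% of the Tyr-L mean, and the log2 fold change of -0.99 (SE 0.05, adjusted p = 1.01e-06) lay just inside the threshold. It was past it with each library rescaled to 1 common total (-1.09), without Tyr-L replicate 2 (-1.01) and without Tyr-H replicate 1 (-1.03). Its promoter is shown as that of the plaque gene that fell most, with 4 GC boxes in capitals in the 250 bases before the RefSeq start.
Tns3, minus strand, chr11:8664536-8664785: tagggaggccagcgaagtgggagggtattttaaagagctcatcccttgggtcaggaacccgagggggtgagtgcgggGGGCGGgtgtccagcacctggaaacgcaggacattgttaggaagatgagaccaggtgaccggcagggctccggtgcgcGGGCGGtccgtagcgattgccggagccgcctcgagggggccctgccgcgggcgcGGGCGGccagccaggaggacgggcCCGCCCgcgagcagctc

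*Tns1* was far lower, at 0.789 to 1.07 FPKM in Tyr-L and 0.949 to 1.44 FPKM in Tyr-H libraries, which overlapped. Its adjusted p was 0.1, and it was 0.0307 without Tyr-H replicate 3, 0.0373 by median ratio scaling and 0.0343 by quantile normalization.

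*Flna*, the actin crosslinker filamin A that also binds beta tails, rose. It had 107, 115 and 110.0 FPKM in Tyr-L and 133, 136 and 136 FPKM in Tyr-H libraries (log2 fold change 0.29, adjusted p = 0.00012). *Vcl* (vinculin) had 11.7, 13.7 and 13.1 FPKM against 16.9, 14.9 and 15.3 FPKM (log2 fold change 0.29, adjusted p = 0.00686). Rescaled to 1 common total it was 0.20 (adjusted p = 0.0531), and the gene overlaps the expressed gene *Ap3m1* on the opposite strand. *Actn1*, an alpha-actinin of stress fibres, fell, with 32.0, 34.7 and 33.9 FPKM in Tyr-L and 26.8, 27.3 and 27.5 FPKM in Tyr-H libraries (log2 fold change -0.30, adjusted p = 0.000221). *Actn4*, the most abundant plaque transcript of Tyr-L cells, had 134, 135 and 131 FPKM against 129, 121 and 119.8 FPKM. Its log2 fold change of -0.12 (adjusted p = 0.02) was near that of all genes and became 0.04 after median ratio scaling. It missed the threshold without Tyr-L replicate 1 or 2 and without Tyr-H replicate 2 or 3 (adjusted p = 0.0565 to 0.0684), and after quantile normalization (0.0947).

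Ratios of related genes within a library do not move with a factor applied to all its genes, and 10 were computed after the levels had been seen. *Tln2* to *Tln1* went from 0.348 ± 0.01 to 0.228 ± 0.01, *Parvb* to *Parva* from 1.14 ± 0.06 to 0.825 ± 0.07, and *Zyx* to *Trip6* from 1.34 ± 0.08 to 2.74 ± 0.05 (SD, n = 3). *Itgb5* to *Itgb3* went from 1.32 ± 0.02 to 2.77 ± 0.24, and *Itgb5* to *Itgav* from 0.186 ± 0.01 to 0.628 ± 0.07. *Itga6* to *Itga5* went from 8.65 ± 0.26 to 3.53 ± 0.08, and *Itgav* to *Itga5* from 4.83 ± 0.19 to 2.13 ± 0.05. The pairs were picked for how their genes moved, so that the groups stood apart in all 10 by choice, and no test is given. Reads that fit both of a pair of paralogs may have been divided between them, which the FPKM values do not show.

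**Figure D4:**
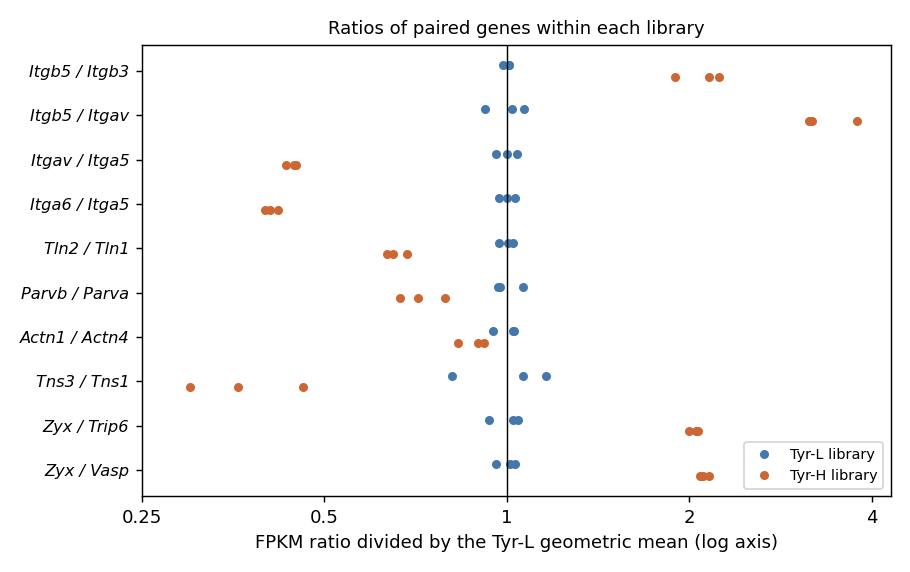
FPKM ratio of each named pair of genes in each library, divided by the geometric mean of the 3 Tyr-L libraries (log axis, so 1 is the Tyr-L level). Tyr-H libraries lie to the right of all Tyr-L libraries for Itgb5 / Itgb3, Itgb5 / Itgav, Zyx / Trip6 and Zyx / Vasp and to the left for the other 6.

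Set against each other, the plaque genes summed to 749, 778 and 752 FPKM in Tyr-L and to 818, 808 and 806 FPKM in Tyr-H libraries. The integrin genes summed to 287, 286 and 289 FPKM in Tyr-L and to 273, 278 and 269 FPKM in Tyr-H libraries. The plaque sum was 2.61 to 2.72 times the integrin sum in Tyr-L and 2.91 to 3.00 times in Tyr-H libraries. Without *Zyx* it was 2.48 to 2.57 times in Tyr-L and 2.57 to 2.65 times in Tyr-H libraries, and these ranges met. Since the members were chosen with results of these data known, no test was made of either ratio.

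In the promoters of all members 6 motifs were searched on both strands: the GC box GGGCGG, the TEAD core GGAATG, the AP-1 site (TGACTCA or TGAGTCA), the E-box CACGTG, the CATGTG core of the melanocytic M-box, and the CArG box of serum response factor, none of which contains another. Of the windows shown, those of *Itgb5* and *Tns3* matched only the GC box and that of *Itgav* none of the 6.

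RefSeq windows were found for 31 of the 42 listed members, some with more than 1. GC boxes lay in 14 of 19 windows of plaque genes and in 6 of 17 of integrin genes, against 32.7% of all 32851 windows. An AP-1 site lay in 1 plaque window (*Zyx*) and 1 integrin window (*Itgax*), against 4.46% of all. The CArG box, found in 1.47% of all windows, was in those of *Vcl* and *Fermt2*, and the TEAD core (12.6% of all) in those of *Actn4*, *Flna*, *Trip6*, *Vcl*, *Itgb1* and *Itga10*. The E-box (6.02% of all) was in those of *Ilk*, *Lims1* and *Trip6*, and CATGTG (12.3% of all) in those of *Actn1*, *Itga3* and *Itgb7*. A match in a window is a stretch of letters and says nothing of binding in these cells.

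Other components of these adhesions came from lists chosen by function. Of 57 tested adhesome genes outside the names above, 9 rose and 24 fell, beside 17.9% and 39.9% of all tested genes, and the median log2 fold change was -0.11. Of them 4 were called, all lower (5.78% of all tested genes were), 3 of which are described here. *Cav1*, the coat protein of caveolae, had 7.26, 6.25 and 6.44 FPKM against 2.53, 1.80 and 2.13 FPKM (log2 fold change -1.59). *Lims2*, the gene of PINCH-2, fell from 2.44 ± 0.84 to 0.594 ± 0.11 FPKM (SD, n = 3). *Fblim1*, the gene of migfilin, was also called lower, although Tyr-H replicate 2 (1.38 FPKM) lay above Tyr-L replicate 1 (1.29 FPKM). *Enah*, like *Vasp* a binding partner of zyxin and named after its values were seen, had 23.5, 23.7 and 25.6 FPKM in Tyr-L and 12.7, 13.5 and 12.5 FPKM in Tyr-H libraries. Its log2 fold change of -0.90 was opposite in sign to that of *Zyx*.

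Of 17 tested membrane partners of integrins, 10 rose and 3 fell (median log2 fold change 0.16), where 17.9% of all tested genes rose and 39.9% fell. Called higher were 3, beside 2.96% of all tested genes, and 1 of these, *Icam1*, passed the filter on low values through its Tyr-H libraries. *Lgals3*, the gene of galectin-3, a lectin that binds integrin glycans, had 155, 156 and 140.4 FPKM in Tyr-L and 689, 653 and 729 FPKM in Tyr-H libraries (log2 fold change 2.20). *Slc3a2*, which encodes CD98 heavy chain, a partner of beta-1 and of amino acid transporters, had 76.0, 86.4 and 79.1 FPKM against 185, 206 and 225 FPKM (log2 fold change 1.35). *Icam1*, an integrin ligand on cell surfaces, which is too low for the naming rule and was named after its values were seen, had at most 0.0326 FPKM in Tyr-L and 0.449 to 0.889 FPKM in Tyr-H libraries.

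Of 23 tested ligand genes, 7 rose and 8 fell (median log2 fold change -0.16), against 17.9% and 39.9% of all tested genes, and *Tgfb1* was called higher (2.96% of all were). Integrins of the alpha-v family bind its latent protein and release the active form. It had 0.763, 0.446 and 0.63 FPKM in Tyr-L and 2.61, 2.89 and 3.05 FPKM in Tyr-H libraries (log2 fold change 2.07). *Fn1*, the fibronectin gene, named after its values were seen, had 27.2, 29.3 and 27.8 FPKM against 48.3, 54.0 and 54.1 FPKM. It rose by 0.89 on the log2 scale, without reaching the threshold for a call. Other ligand genes fell by a like amount, also named after their values were seen. *Col4a1*, a collagen chain of basement membranes, had 11.8, 10.2 and 10.8 FPKM in Tyr-L and 5.99, 5.42 and 5.02 FPKM in Tyr-H libraries (log2 fold change -0.98). *Spp1*, the osteopontin gene, had 24.2, 21.6 and 21.8 FPKM against 13.01, 11.6 and 12.3 FPKM (log2 fold change -0.87). Of 28 tested stress fibre genes, 11 rose and 10 fell (median log2 fold change -0.10), again beside 17.9% and 39.9% of all tested genes. *Tagln2*, an actin-bundling transgelin, rose from 10.3 ± 0.43 to 42.5 ± 1.22 FPKM, and *Mylk*, the myosin light chain kinase gene, fell from 3.16 ± 0.1 to 0.824 ± 0.04 FPKM (SD, n = 3). *Tpm2*, a tropomyosin named outside the rule in the same way, had at most 0.0498 FPKM in Tyr-L and at most 0.254 FPKM in Tyr-H libraries. It was called higher too, but it passed the filter on low values only through its Tyr-H libraries, so that it had to differ.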

How the data were processed

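mRNA of B16 subclones was sequenced in 3 Tyr-L and 3 Tyr-H libraries as read pairs (150 bp). FPKM values were deposited by the authors as 1 table per library, with columns of no other unit used here. Per the submitters' processing notes, reads went through Trimmomatic and HISAT2 with GRCm38.p6; the quantifier, annotation, versions and strand setting are not given in the sources used here. Unlisted genes were taken as 0. FPKM values are not counts, so no count test was run. Depth was estimated from the lowest values of genes with 1 annotated transcript of at least 1500 nt, and gives a floor of 3 fragments per gene that is approximate and covers counting error only.

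Groups and replicate numbers came from the labels. Tyr-H was compared with Tyr-L on log2(FPKM + 0.1) for genes that averaged 0.1 FPKM or more, with limma 3.58.1 in R 4.3.3 (eBayes with a variance trend, two-sided, Benjamini-Hochberg adjustment over the 14336 tested genes). Thresholds followed the study's methods. The script was first tested on simulated data. An exact permutation test, two-sided, was planned for the shares of the beta chains, but for 3 against 3 it cannot go below 0.1, and the shares are given with no test.

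All members are accounted for. The value in every library is given for members called, for *Itgb5*, for members that averaged 10 FPKM or more, and for those that rose or fell and averaged 1 FPKM or more. From each list of other genes, up to 4 called genes averaging 1 FPKM or more are named. The values of 1 such gene are not reported here. Members and lists were chosen with earlier results of these data known. GENCODE M21 (GRCm38) gave coordinates, for 20709 of 20788 identifiers, and 25 of the 42 listed members overlap another annotated gene there. Promoters came from RefSeq (GRCm38.p6). Alternatives were pseudocounts of 0.01 and 1 FPKM, no filter or a filter at 1 FPKM, 3 other scalings, no variance trend, a replicate block, no fold-change threshold and each library left out. Python 3.11.15, scipy 1.17.1 and matplotlib 3.10.9 were also used.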

Additional observations from a re-analysis of the deposited data

How the results depend on the processing

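The count of called genes over all tested genes was 1254, and it was 388 with a pseudocount of 1 FPKM, 640 with the filter at 1 FPKM and 8292 without the fold-change threshold. The 2 integrin genes called higher became 0 with a pseudocount of 1 FPKM or with the filter at 1 FPKM. That filter removes *Itgb8* and *Itga3* from the test. The count was 3, with *Itgb5* added, by median ratio scaling and after quantile normalization, and 5 without the fold-change threshold. Integrin genes called lower went from 0 to 1 (*Itga10*) with a pseudocount of 0.01 FPKM and with libraries rescaled to 1 common total, and to 4 without the threshold. Plaque genes called higher went from 1 to 9 without the threshold, and those called lower from 0 to 1 (*Tns3*) by the same rescaling and to 7 without the threshold. With each library left out, these counts ran from 1150 to 1281 for all genes, from 2 to 2 for integrin genes higher, from 0 to 1 for integrin genes lower (*Itga10*, without Tyr-H replicate 2), from 1 to 1 for plaque genes higher and from 0 to 1 for plaque genes lower (*Tns3*, without Tyr-L replicate 2 or Tyr-H replicate 1). The integrin genes higher were then not the same ones, since *Itgb5* took the place of *Itga3* without Tyr-L replicate 2. The median log2 fold change of integrin genes (-0.09) was 0.063 by median ratio scaling and 0.081 after quantile normalization; that of plaque genes (0.10) was 0.25, 0.20 and, rescaled to the total, 0.0064. Signs turned by median ratio scaling and quantile normalization were those of *Itga1* (0.088 and 0.11), *Itga9* (0.0006 and 0.031), *Itgb3* (0.063 and 0.081), *Parva* (0.12 and 0.063) and *Ptk2* (0.11 and 0.079), and by median ratio scaling alone *Actn4* (0.037) and *Tln1* (0.036). With each library left out *Itga1* ran from -0.11 to 0.0001, the latter without Tyr-H replicate 3. The replicate numbers 1 to 3 showed no sign of pairing the libraries. Same-numbered libraries deviated from their group means with correlations of 0.02, 0.01 and -0.08, which cannot settle how they were prepared. With the replicate block, 1258 genes were called, 2 integrin genes and 1 plaque gene higher and 0 lower in either class, and no call of a member changed, while *Lims1* lost its adjusted p (0.0696). Depth limits the leukocyte chains and the genes under 0.1 FPKM, and the tables show RNA only.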
